A study of Mus musculus with 12 samples.

Results

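The genes of the microtubule motors, the kinesins, cytoplasmic dynein and its cofactor dynactin, were examined in RNA-seq data of piriform cortex, a primary olfactory area, from mice that model Huntington's disease. They were taken by gene symbol: the numbered Kif genes, Kifc1 to Kifc3, and the kinesin light chains Klc1 to Klc4. The Dync1 and Dync2 subunits, Dctn1 to Dctn6, Dynll1, Dynll2, Dynlrb1 and Dynlrb2 were taken as well. Kifc symbols with a letter after the number, such as Kifc5b, do not match the pattern used. The pattern matched 61 of 48795 genes in the count table, and 56 of them were among the 17725 genes with enough reads to be tested. To this end 6 wild type animals were compared with 6 animals heterozygous for Q140, a knock-in allele of Htt with an expanded CAG repeat, expressed from the gene's own locus. All 12 mice were on a C57BL/6 background and aged 12 months, and each genotype had 3 males and 3 females. With 1 library per animal, the spread behind each p-value is that between mice.

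Kinesins and dynein turn ATP hydrolysis into steps along microtubules. In axons most kinesins walk outward, carrying synaptic vesicle precursors, mitochondria and membrane proteins, whereas cytoplasmic dynein, working with dynactin, walks back toward the cell body with endosomes and signals. Huntingtin, the product of Htt, associates with dynein and, through the adaptor HAP1, with dynactin and kinesin-1. Other kinesins build the mitotic spindle or serve in cilia.

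Libraries held 19587208 to 35198602 counts. TMM factors, which correct for library composition, were 0.984 ± 0.0110 in wild types and 1.02 ± 0.0177 in Q140 animals (SD, n = 6 each) and did not overlap (exact permutation p = 0.00216, two-sided, the smallest possible with 6 a group). The targeted gene Htt, counted over both alleles, lay between 180 and 204 CPM (counts scaled by library size and by these factors) in wild types and between 143 and 164 CPM in Q140 animals, without overlap. It fell by 0.37 on the log2 scale (SE 0.0428, edgeR adjusted p = 0.000203). The defining markers of cortical excitatory neurons were present in every animal. Their 14 genes summed to 7431 to 9461 CPM in wild types and 6011 to 6630 CPM in Q140 animals, again without overlap. Several libraries stood apart in markers of neighbouring tissue. Wild type 3 had the lowest sum of meningeal markers (36.6 CPM, with the next animal at 120.0 CPM). Q140 animal 3 (417 CPM) and wild type 4 (401 CPM) had the highest, with the next at 291 CPM. For striatal neuron markers wild type 6 had the lowest sum (328 CPM, with the next at 551 CPM). Wild types 5 (1541 CPM) and 2 (1449 CPM) had the highest, with the next at 998 CPM. In bulk tissue, fewer cells of a type and less RNA per cell cannot be told apart.

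The motor genes spanned the whole range from abundant to absent in wild type cortex. On the per-length scale (FPKM, counts per kilobase of transcript scaled to the library total, as the authors deposited it), 8 genes had a wild type mean of at least 100 FPKM, 30 of at least 10 FPKM, 10 lay from 1 to under 10 FPKM and 21 below 1 FPKM. Kif5a, the neuronal heavy chain of kinesin-1, led at 470 ± 45.3 FPKM (SD, n = 6), and its lowest animal, at 412 FPKM, stood above every animal of the next gene. That was Klc1, the main light chain that links kinesin-1 to cargo, at 201 ± 15.0 FPKM. Kif1a, the kinesin-3 motor of synaptic vesicle precursors, followed at 187 ± 9.56 FPKM, then the dynein light chain gene Dynll2 at 183 ± 10.4 FPKM and the kinesin-14 gene Kifc2 at 182 ± 9.18 FPKM. The wild type ranges of Klc1, Kif1a, Dynll2 and Kifc2 overlapped, so their order is not resolved. Kif5c came next at 136 ± 11.1 FPKM, apart from its neighbours on both sides. Dynlrb1 (106 ± 4.42 FPKM) and Dctn2 (102 ± 3.19 FPKM), a dynein light chain gene and the dynactin subunit dynamitin, overlapped each other, as did Kif1b (68.8 ± 2.32 FPKM) and Dctn1 (66.3 ± 3.55 FPKM), which encodes the p150Glued arm of dynactin. Dync1h1, the heavy chain that holds the dynein motor, stood at 53.1 ± 1.84 FPKM.

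**Figure D1:**
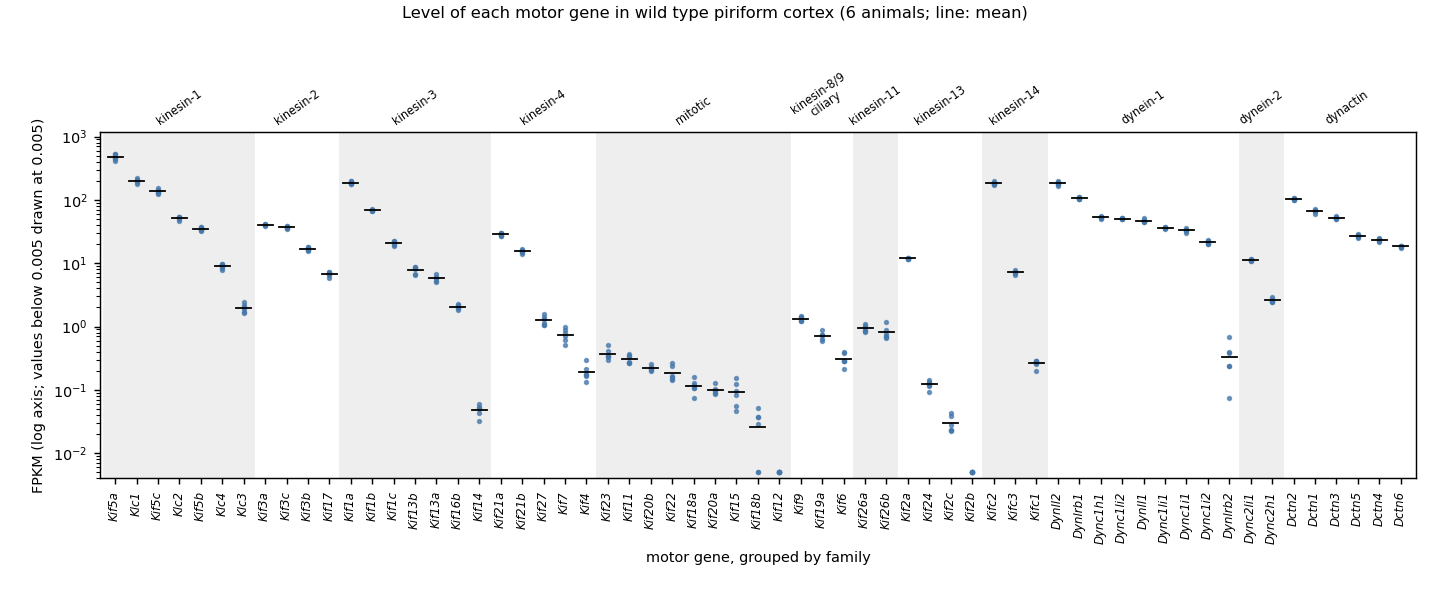
Level of each of the 61 motor genes in the 6 wild type animals, in FPKM on a log axis, grouped by family and ordered by mean within a family. Points are animals and lines are means; Kif5a is highest at a mean of 470 FPKM, and the mitotic kinesins lie below 1 FPKM.

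The spindle motors were scarce. Kif23, of the cytokinetic midzone, was the highest of the 9 genes grouped here as mitotic kinesins (families 5, 6, 8, 10 and 12), at 0.37 FPKM. Too few reads to be tested were found for 5 motor genes. Kif2b had 0 reads in all 12 libraries, Kif12 had 0 in wild types and 1 in Q140, Kif18b had 16 and 18, Kif2c had 22 and 14, and Dynlrb2, a roadblock light chain of dynein, had 33 and 34. For a gene with no read, the level could still be as high as 0.149 CPM in the smallest library and 0.0854 CPM in the largest, taking 3 counts as the limit and counting error alone. Together the 61 genes took 1.34 ± 0.0526% of counts in wild types and 1.31 ± 0.0281% in Q140 animals (SD, n = 6 each, exact permutation p = 0.314).

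Between the genotypes 4 motor genes differed, all of them kinesins: Kif5c, Kif17 and Kif21b fell and Kif11 rose. That was 1 gene higher and 3 lower of 56 tested, where 4.50% of all genes tested were higher and 6.69% lower at an edgeR adjusted p under 0.05. In either direction the motor genes' share was 7.14% and that of all genes 11.2%, so the motors were not called more often than the rest. Kif11 alone had CPM ranges that did not overlap, against 4.59% of all genes tested. The median log2 fold change over the 56 genes was -0.05, and over all genes tested 0.0045. Estimates were below 0 for 37 motor genes and above 0 for 19, where all genes tested had 8639 below and 9086 above. For 42 motor genes they lay within 0.15 of 0. The median absolute log2 fold change was 0.082 for the 56 motor genes and 0.105 for all genes tested. Among genes with a wild type mean of at least 10 CPM it was 0.074 and 0.077. At an unadjusted p under 0.05 the motors gave 12 genes (21.4%), 9 lower (16.1%) and 3 higher (5.36%), where all genes tested gave 26.7%, 14.3% lower and 12.3% higher. Scaling by library totals alone, which raised the median of all genes to 0.051, gave 28 estimates below 0 and called 2 motor genes higher, Kif11 and Dynlrb1, and 1 lower, Kif21b. Under that scaling 13.8% of all genes tested passed.

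**Figure D2:**
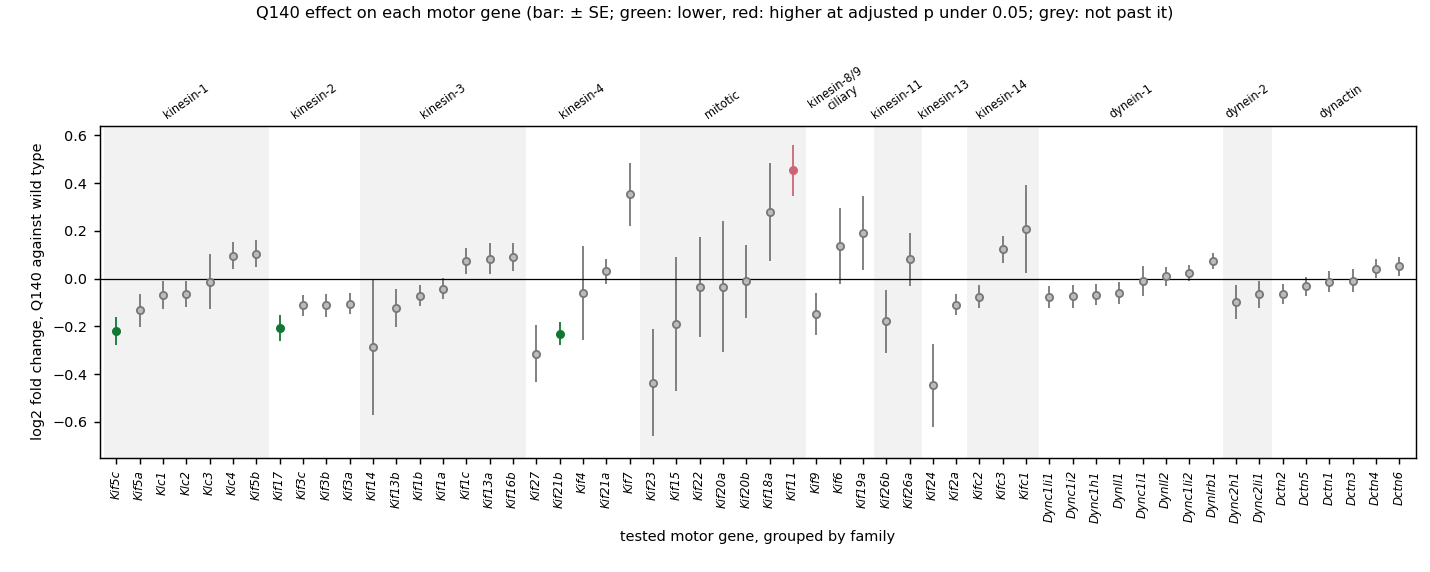
Log2 fold change of Q140 against wild type for the 56 tested motor genes by family, with bars for ± SE (6 animals a group). Green points fell (Kif5c, Kif17, Kif21b), the red point rose (Kif11), and the dynein and dynactin genes all lie between -0.10 and 0.07.

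Kinesin-1, a tetramer of paired heavy chains (KIF5A, KIF5B or KIF5C) and light chains, carries vesicles, mitochondria and RNA granules into axons and dendrites. In this family 1 of 7 genes fell, none rose and the other 6 did not pass. The family had a median log2 fold change of -0.07. Kif5c (ENSMUSG00000026764, chr2:49619298-49774778, plus strand, GRCm38, 29 exonic segments) is the heavy chain enriched in neurons beside Kif5a. Its lowest, median and highest wild type animals had 891, 967 and 1133 CPM, and the Q140 animals had 766, 865 and 912 CPM. The ranges overlapped only slightly: 5 of 6 Q140 animals lay below every wild type, and all 6 below the wild type mean. Kif5c fell by 0.22 on the log2 scale (SE 0.0575, edgeR adjusted p = 0.0269), a mean change of -14.1%. It no longer passed without wild type 1 or 6, or without Q140 animal 1, 2 or 3 (adjusted p = 0.0507 to 0.0707, log2 fold change -0.22 to -0.18).

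Kif5a, whose mutations cause motor neuron disease in people, had 2611, 2970 and 3407 CPM at the lowest, median and highest wild type and 2503, 2636 and 3095 CPM in Q140 animals. These ranges overlapped widely, and the difference of -0.13 on the log2 scale did not pass (SE 0.0711, edgeR adjusted p = 0.252). The ubiquitous heavy chain Kif5b had the opposite sign. Its wild types lay at 244, 260.3 and 280.3 CPM and its Q140 animals at 251, 281 and 313 CPM, with 3 of 6 Q140 animals above every wild type. Over both sexes its difference of 0.11 on the log2 scale did not pass (SE 0.0587, edgeR adjusted p = 0.275). Klc1 gave -0.07 (SE 0.0586), with 1 of 6 Q140 animals above the wild type mean, and the other light chains ranged from -0.07 to 0.10.

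Within each library, the relative output of the heavy chain genes can be compared without any scaling between animals. Kif5a made up 73.2 ± 0.741% of the summed heavy chain FPKM in wild types and 73.4 ± 1.33% in Q140 animals (SD, n = 6 each). Kif5c went from 21.3 ± 0.427% to 20.1 ± 1.22% and Kif5b from 5.48 ± 0.604% to 6.45 ± 0.501%, and the ranges of all 3 overlapped between genotypes. The Kif5b share ran from 4.51% to 6.31% in wild types and from 5.86% to 7.27% in Q140 animals.

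Kinesin-4 holds the KIF21 pair, slow motors that restrain microtubule growth in neurites, and the hedgehog pathway regulator KIF7 with its paralog KIF27. Of 5 tested members 1 fell, 0 rose and 4 did not pass. Kif21b (ENSMUSG00000041642, chr1:136131389-136177998, plus strand, GRCm38, 34 exonic segments) overlaps no other annotated gene. It is known as a motor of dendrites. The lowest, median and highest wild types had 169, 191 and 210.5 CPM and the Q140 animals 155, 163 and 172 CPM. In Q140, 4 of 6 animals lay below every wild type, and the overlap came from wild type 4, the lowest of its group, which lay below Q140 animals 1 and 6. Kif21b fell by 0.23 on the log2 scale (SE 0.0491, edgeR adjusted p = 0.00913), or -14.8%, and it kept passing whichever single animal was left out. Its paralog Kif21a had wild types at 175, 190 and 202 CPM and Q140 animals at 163, 197 and 207 CPM, with 4 of 6 Q140 animals above the wild type mean (log2 fold change 0.03, SE 0.0508, edgeR adjusted p = 0.752). The Kif21b share of the pair's FPKM was 35.1 ± 1.31% in wild types and 31.2 ± 1.80% in Q140 animals (SD, n = 6 each), overlapping only between 33.5% and 33.9%. Across the other members, Kif4, Kif7 and Kif27, estimates ranged from -0.32 to 0.35 with standard errors of 0.12 or more.

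Kinesin-2 includes the heterotrimers that Kif3a forms with Kif3b or Kif3c, which move cargo in cilia and axons, and the homodimer KIF17, which carries NMDA receptor subunit GluN2B in dendrites. Of its 4 genes 1 fell, 0 rose and 3 did not pass. All 4 estimates were below 0 in the reported fit and in each alternative except plate column 9 alone, where 2 were. Kif17 (ENSMUSG00000028758, chr4:138250435-138301967, plus strand, GRCm38, 16 exonic segments) shares 74 exonic bases with Sh2d5 on the same strand. Its wild types had 27.5, 32.7 and 34.1 CPM at the lowest, median and highest, and its Q140 animals 26.2, 27.5 and 29.6 CPM. The overlap again came from wild type 4, the lowest of its group, since the other wild types began at 30.7 CPM, above every Q140 animal. Kif17 fell by 0.21 on the log2 scale (SE 0.0545, edgeR adjusted p = 0.0268), or -13.3%. It no longer passed without wild type 1, 2 or 5, or without Q140 animal 1, 4 or 6 (adjusted p = 0.0520 to 0.0675, log2 fold change -0.20 to -0.18).

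The heterotrimer motors gave smaller differences. Kif3a had wild types at 137, 147 and 154 CPM and Q140 animals at 120.0, 139 and 143 CPM, none of them above the wild type mean, which gives -0.10 on the log2 scale (SE 0.0453, edgeR adjusted p = 0.157). Kif3b gave -0.11 (SE 0.0487, adjusted p = 0.160) and Kif3c -0.11 (SE 0.0445, adjusted p = 0.122), where 3205 exonic bases of Kif3c lie opposite other genes. Their proportions stayed close: Kif3a took 42.8 ± 0.798% of the 3 genes' FPKM in wild types and 42.9 ± 1.01% in Q140 animals (SD, n = 6 each).

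Promoter sequence was examined for the motor genes with an entry in the RefSeq table, Kif5c, Kif17 and Kif11 among them; that of Kif21b was not analysed here. The 250 bases upstream of each RefSeq start on GRCm38.p6 were read, in 54 windows of 47 motor genes. The windows of Kif5c, Kif17 and Kif11 are shown because these genes changed and because each holds a form of the cAMP response element (CRE), the site that CREB family factors are known to bind. Capitals mark its core TGACG on either strand (CGTCA on the strand printed), which in Kif5c and Kif17 merges into the full palindrome TGACGTCA. Kif5c is at chr2:49619036-49619285, Kif17 at chr4:138262001-138262250, inside the annotated gene span since the GENCODE model begins further upstream, and Kif11 at chr19:37376132-37376381, all on the plus strand.
Kif5c: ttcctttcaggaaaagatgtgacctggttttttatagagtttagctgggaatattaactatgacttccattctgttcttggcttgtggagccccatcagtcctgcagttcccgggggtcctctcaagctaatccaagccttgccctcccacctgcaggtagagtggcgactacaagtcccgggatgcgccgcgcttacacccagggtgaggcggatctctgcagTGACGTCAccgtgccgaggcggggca
Kif17: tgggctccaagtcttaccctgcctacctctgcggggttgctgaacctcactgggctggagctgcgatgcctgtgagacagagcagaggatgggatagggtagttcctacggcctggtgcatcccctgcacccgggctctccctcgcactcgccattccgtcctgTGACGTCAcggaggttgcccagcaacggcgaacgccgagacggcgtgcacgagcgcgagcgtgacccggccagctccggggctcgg
Kif11: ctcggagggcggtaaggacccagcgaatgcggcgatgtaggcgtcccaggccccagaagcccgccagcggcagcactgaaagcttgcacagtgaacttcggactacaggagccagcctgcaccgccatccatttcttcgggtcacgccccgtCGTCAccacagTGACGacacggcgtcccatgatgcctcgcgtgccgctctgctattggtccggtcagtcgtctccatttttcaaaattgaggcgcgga
The full TGACGTCA was found in 4 of the 54 motor gene windows (7.41%), those of Kif5c, Kif17, Klc1 and Dctn3, and in 508 of 32851 windows in the RefSeq table (1.55%). Its core TGACG, searched on both strands and contained in the full site, was in 21 motor gene windows (38.9%) and in 17.8% of all. The GC box GGGCGG was in 32 motor gene windows (59.3%) and 32.7% of all, and CCAAT in 23 (42.6%) and 33.8% of all, both strands searched. GC content was 55.2% in the window of Kif5c, 66.4% in Kif17 and 62% in Kif11, with a median of 52.4% over all windows. In motor gene windows it ran from 32.8% (Kif27) to 85.6% (Kif13a). The motif frequencies were not adjusted for GC content. The CRE was picked after the windows were read, so its frequency is a description. Klc1 and Dctn3, which hold the full site as well, gave log2 fold changes of -0.07 and -0.01 and did not pass.

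Among the genes grouped as mitotic kinesins 1 rose, 0 fell and 6 did not pass of 7 tested. Kif14, Kif4 and Kifc1 were counted with kinesin-3, kinesin-4 and kinesin-14 instead. Kif11 (ENSMUSG00000012443, chr19:37376403-37421859, plus strand, GRCm38, 21 exonic segments) encodes the kinesin-5 motor Eg5, which slides spindle poles apart and in neurons is known to limit microtubule transport. Its level was low, at 1.81, 1.35, 1.31, 1.67, 1.65 and 1.32 CPM in wild types 1 to 6 and 1.92, 2.02, 2.24, 1.87, 2.07 and 2.33 CPM in Q140 animals 1 to 6. All 6 Q140 animals were above all 6 wild types. Kif11 rose by 0.45 on the log2 scale (SE 0.105, edgeR adjusted p = 0.0144), a mean change of 36.5% that rests on 257 reads in wild types and 381 in Q140 animals, and it passed whichever single animal was left out. Markers of dividing cells were read in the same libraries. None of the 7 tested passed, all 7 had estimates below 0, none of the 10 listed was at 0 in every library, and their summed level was 7.50 to 9.36 CPM in wild types and 6.95 to 8.41 CPM in Q140 animals. The other 6 mitotic kinesins, with 0.37 FPKM or less in wild types, had estimates from -0.44 to 0.28 with standard errors of 0.15 to 0.28, so only large differences were detectable at this depth.

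**Figure D3:**
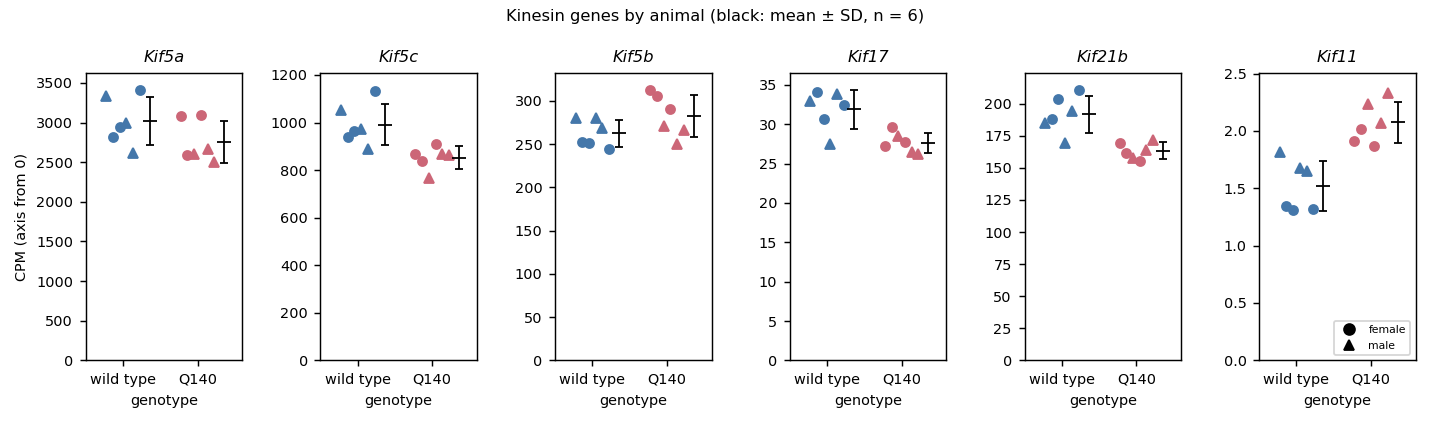
CPM of 6 kinesin genes in each animal, on axes from 0, with circles for females, triangles for males and black bars for mean ± SD (n = 6). All Q140 animals lie above all wild types for Kif11, and for Kif5c, Kif17 and Kif21b no Q140 animal reaches the wild type mean.

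The 3 motor genes that fell are known from neurons, and their falls came beside the lower excitatory neuron markers. Of those 14 markers 6 fell, 0 rose and 8 did not pass, and the summed level did not overlap between the genotypes. Of 12 inhibitory neuron markers 4 fell and 0 rose, with sums of 903 to 1074 CPM in wild types and 735 to 905 CPM in Q140 animals. Of 16 oligodendrocyte markers 7 rose and 0 fell, with sums of 3806 to 5389 CPM and 4379 to 6253 CPM. No marker of these 3 lists was at 0 in every library. Of 10 tested astrocyte markers 1 rose and 2 fell, and of 10 tested microglia markers 2 rose and 0 fell. The part of these shifts in the motor gene results was not tested.

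No kinesin-3 gene passed. This family, which carries synaptic vesicle precursors, dense core vesicles and endosomes, gave a median log2 fold change of -0.04 over 7 tested members. Kif1a had 1646, 1770 and 1911 CPM at the lowest, median and highest wild type and 1646, 1728 and 1779 CPM in Q140 animals (log2 fold change -0.04, SE 0.0444). Kif1b had 1186, 1227 and 1288 CPM in wild types and 1048, 1178 and 1247 CPM in Q140 animals, with a log2 fold change of -0.07 (SE 0.0453). Kif1a made up 67.6 ± 1.55% of the KIF1 genes' summed FPKM in wild types and 67.6 ± 0.395% in Q140 animals (SD, n = 6 each).

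The remaining kinesin families gave no call. Kif2a, a kinesin-13 that depolymerises microtubules and prunes axon branches, had wild types at 81.2, 85.9 and 87.7 CPM and Q140 animals at 70.7, 79.3 and 84.7 CPM. No Q140 animal reached its wild type mean, 4 lay below every wild type, and the difference was -0.11 on the log2 scale (SE 0.0438, edgeR adjusted p = 0.125). It passed without Q140 animal 5 (adjusted p = 0.0425), and 1229 of its exonic bases lie opposite Dimt1. Kif24, a kinesin-13 of the centriole, gave -0.45 (SE 0.173, adjusted p = 0.115) on 170 reads in wild types and 136 in Q140. In kinesin-14, the minus-end-directed kinesins, Kifc3 gave 0.12 (SE 0.0577, adjusted p = 0.192), and Kifc1 is uncertain because 39.7% of its 50-base stretches occur in other transcripts, mainly those of Kifc5b. Of the ciliary kinesins Kif9 gave -0.15 (SE 0.0863), and of kinesin-11 Kif26b gave -0.18 (SE 0.131).

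Cytoplasmic dynein and dynactin gave no call in either direction. All 8 tested dynein-1 genes had log2 fold changes between -0.08 and 0.07, with standard errors of 0.0326 to 0.0617, and the 6 dynactin genes lay between -0.06 and 0.05, with standard errors of 0.0388 to 0.0487. Of all genes tested 11.2% passed in edgeR and 26.7% had an unadjusted p under 0.05. Over both complexes and dynein-2, 0 of 16 tested genes passed in edgeR and 1 had an unadjusted p under 0.05. This was Dynlrb1, a roadblock light chain of the dynein tail, with wild types at 103, 109 and 117 CPM and Q140 animals at 107, 115 and 122 CPM (log2 fold change 0.07, SE 0.0326, edgeR adjusted p = 0.170). It passed in 3 alternatives, the fit on library totals alone and both fits on log2 FPKM.

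Dync1h1 had 789.6, 861 and 864 CPM in wild types and 754, 797 and 863 CPM in Q140 animals (log2 fold change -0.07, SE 0.0436, edgeR adjusted p = 0.342). The intermediate chain gene Dync1i1, the neuronal form that contacts dynactin, gave -0.01 (SE 0.0617, adjusted p = 0.936) and turned positive under library totals alone. Dynll1, a light chain shared with many other complexes, gave -0.06 (SE 0.0461). In dynactin, Dctn1 lay at 393, 442 and 473 CPM in wild types and at 409.8, 436 and 453 CPM in Q140 animals, and its estimate of -0.01 (SE 0.0438) also turned positive under library totals alone. Dctn2 gave -0.06 (SE 0.0417, adjusted p = 0.361). For dynein-2, the retrograde motor of cilia, the heavy chain Dync2h1 gave -0.10 (SE 0.0715). The subunit proportions overlapped between genotypes: Dync1i1 made up 60.6 ± 2.19% of the intermediate chain FPKM in wild types and 61.6 ± 2.72% in Q140 animals, and the light intermediate chain Dync1li1 made up 41.7 ± 0.853% and 39.9 ± 1.16% of its pair (SD, n = 6 each).

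**Figure D4:**
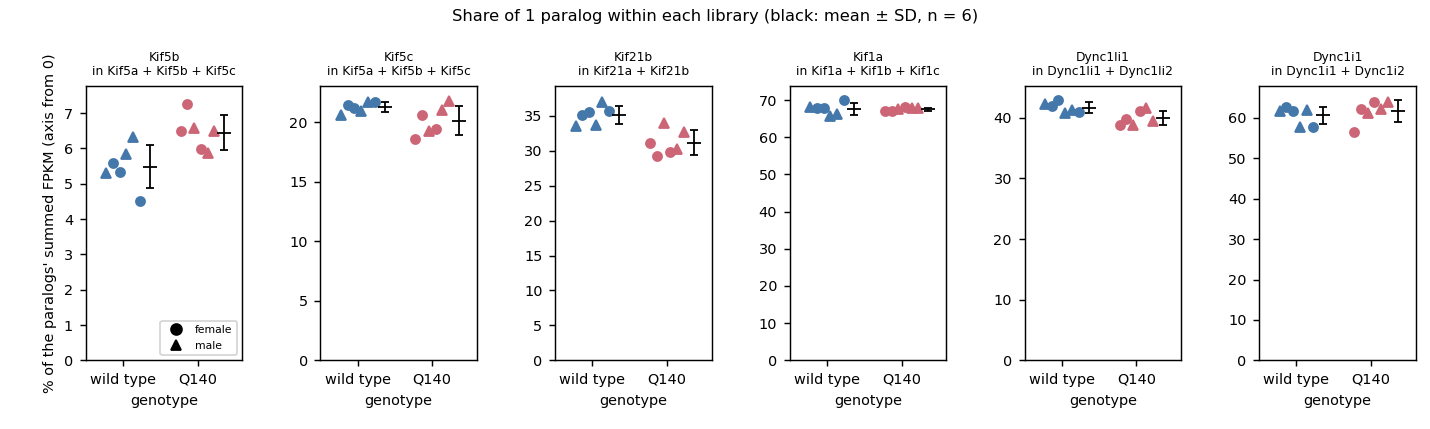
Share of one paralog in the summed FPKM of its set, in percent on axes from 0, for each animal (circles female, triangles male, black bars mean ± SD, n = 6). The Kif21b share moves from a mean of 35.1% to 31.2% and the Kif5b share from 5.48% to 6.45%, and the genotypes overlap in all 6 panels.

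Of the motor genes, Kif5b had the smallest p when the effect of Q140 was compared between males and females. Among females 3 motor genes of 56 passed, Kif5b and Kif11 higher and Kif21b lower, where 7.05% of all genes tested passed. Female wild types had 252, 251 and 244 CPM of Kif5b and female Q140 animals 313, 305 and 291 CPM, so the groups were apart, as they were within females for 16 of 56 motor genes (28.6%) and 29.5% of all genes tested. Kif5b rose in females by 0.28 on the log2 scale (SE 0.0496, edgeR adjusted p = 0.00687). Male wild types had 280.0, 280.3 and 268 CPM and male Q140 animals 271, 251 and 266 CPM, which gives -0.07 (SE 0.0497, edgeR adjusted p = 0.507). The difference of the male from the female effect, -0.35 (SE 0.0702), did not pass in edgeR (adjusted p = 0.471) but did in DESeq2 (adjusted p = 0.00218). In edgeR 0 of all genes tested (0%) passed this test. At an unadjusted p under 0.05 it gave 1633 of all genes tested (9.21%) and 3 of 56 motor genes (5.36%). The share of all genes that passed this test in DESeq2 was not counted. Kif5b shares 324 exonic bases with genes on the opposite strand.

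Kif21b fell in females by 0.31 on the log2 scale (edgeR adjusted p = 0.0140), and gave -0.15 in males (adjusted p = 0.255). Kif11 rose in females by 0.54 (adjusted p = 0.0449), and gave 0.36 in males (adjusted p = 0.245). Neither difference between the sexes passed (edgeR adjusted p = 0.615 for Kif21b and 0.809 for Kif11). Within females only Kif5b passed without wild type 3, wild type 6 or Q140 animal 2, where Kif21b had adjusted p = 0.0587, 0.0502 and 0.0741. Of the 12 fits that left out 1 animal, Kif11 passed in females only in the one without Q140 animal 5, with adjusted p = 0.0515 to 0.154 in the others. In males 0 motor genes passed in edgeR, where 1.40% of all genes tested did, with 10 motor genes (17.9%) and 16.6% of all genes at an unadjusted p under 0.05, and voom called Kif13b (log2 fold change -0.33, adjusted p = 0.0445). Between males and females of both genotypes 0 motor genes passed in edgeR, against 0.654% of all genes tested. At an unadjusted p under 0.05 there were 7 motor genes (12.5%) and 13.5% of all genes. DESeq2 called Dynlrb1, lower in males (log2 fold change -0.11, DESeq2 adjusted p = 0.0413). The shares of all genes that passed in voom within males and in DESeq2 between the sexes were not counted.

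Names and plate columns were unevenly spread among the females. Of the 3 female Q140 animals 2 carried no name prefix and all 3 sat in plate column 8, whereas 2 female wild types carried RFckQ and sat in column 8 and wild type 6, with the prefix FMQ, sat in column 9. With plate column as a term in the same model Kif5b gave 0.27 in females (edgeR adjusted p = 0.0168) and Kif21b -0.29 (adjusted p = 0.0321), and Kif11, at 0.52, did not pass (adjusted p = 0.0841). With name prefix as a term, which leaves 2 wild types and 1 Q140 female that share a prefix, none of the 3 passed: Kif5b gave 0.21 (edgeR adjusted p = 0.315), Kif21b -0.33 (adjusted p = 0.177) and Kif11 0.49 (adjusted p = 0.477). Prefix and genotype therefore cannot be fully told apart in females. The same holds in males, where all 3 Q140 animals carried RFQ, against 1 wild type with RFQ and 2 with RFckQ.

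**Figure D5:**
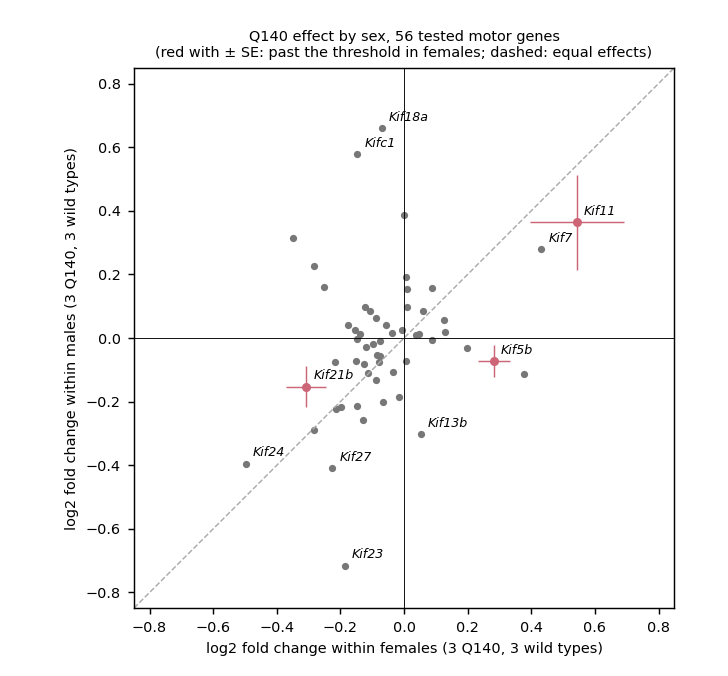
Log2 fold change of Q140 against wild type within females (horizontal) and within males (vertical) for 56 motor genes, 3 animals of each genotype and sex. Red points with ± SE bars passed in females, and Kif5b lies at 0.28 in females and -0.07 in males, away from the dashed line of equal effects.

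The motors' partners, tracks and relatives were read from lists of genes outside the name pattern, chosen with earlier results of these data known. Their counts stand against the 4.50% higher and 6.69% lower of all genes tested. Of the 10459 genes tested with a wild type mean of at least 10 CPM, 515 were higher and 936 lower. Of 30 tested dynein and dynactin subunits and regulators 2 rose (6.67%) and 4 fell (13.3%), with a median log2 fold change of -0.03. Nde1, which with LIS1 loads dynein, had 17.3 to 21.8 CPM in wild types and 23.2 to 33.0 CPM in Q140 animals, without overlap, and rose by 0.62 on the log2 scale (SE 0.0866, edgeR adjusted p = 0.000715). Numa1, which anchors dynein at the cell cortex and spindle poles, rose by 0.16 (SE 0.0389, adjusted p = 0.0180), again without overlap. Rilpl1 fell by 0.37 (SE 0.0816) and Nin, the centrosomal dynein activator ninein, by 0.21 (SE 0.0556). Of 32 kinesin adaptors and regulators 0 rose and 3 fell (9.38%), with a median of -0.05. These were Madd, which links kinesin-3 to Rab3 vesicles and fell by 0.23 (SE 0.0485, adjusted p = 0.00922), Clstn1, a kinesin-1 cargo adaptor, by 0.16 (SE 0.0470, adjusted p = 0.0392), and Lin7b, of the complex that ties KIF17 to GluN2B, by 0.27 (SE 0.0821, adjusted p = 0.0467). Clstn1 and Lin7b passed in 12 of 30 alternatives each.

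Of 52 genes for tubulins and proteins of the microtubule track 1 rose (1.92%) and 8 fell (15.4%), against 4.50% and 6.69% of all genes tested, with a median of -0.06. Tuba8, a divergent alpha-tubulin, had 16.5 to 21.2 CPM in wild types and 8.65 to 13.8 CPM in Q140 animals, without overlap, and fell by 0.63 (SE 0.0883, edgeR adjusted p = 0.000765). Dclk1, a doublecortin kinase that guides kinesin-3 cargo into dendrites, had 983 to 1062 CPM in wild types and 742 to 898 CPM in Q140 animals, again apart, and fell by 0.31 (SE 0.0466, adjusted p = 0.00103). Camsap1, a minus-end protein, fell by 0.19 (SE 0.0408) and Map1a by 0.22 (SE 0.0486). The 1 gene that rose was Atat1, the tubulin acetyltransferase, by 0.15 (SE 0.0389, adjusted p = 0.0274), named after its value was seen.

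In the intraflagellar transport list, cargo trains of kinesin-2 and dynein-2, 1 of 23 tested genes rose (Ift27 by 0.29, SE 0.0799) and 1 fell (Ift122 by 0.21, SE 0.0476). Among 21 tested unconventional myosins, the motors of actin filaments, 3 rose (14.3%) and 4 fell (19.0%), again against 4.50% and 6.69%. Myo5c had 6.08 to 8.50 CPM in wild types and 3.07 to 5.62 CPM in Q140 animals, and fell by 0.78 (SE 0.116, edgeR adjusted p = 0.00103). Myo5b, a motor of recycling endosomes, fell by 0.31 (SE 0.0608) and Myo18a by 0.20 (SE 0.0346), each without overlap. Myo1c rose by 0.26 (SE 0.0553).

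Plate layout and animal naming bear on all of these calls. Plate column 8 held 3 wild types and 4 Q140 animals and column 9 held 3 and 2. With column as a term all 4 calls held. Within column 8 alone Kif21b passed (-0.26), with Kif5c at -0.22, Kif17 at -0.20 and Kif11 at 0.47, and within column 9 alone none did, with Kif21b at -0.11, Kif5c at -0.10, Kif17 at -0.22 and Kif11 at 0.40. The animals' names carry prefixes of unstated meaning that are unevenly spread, RFckQ over 4 wild types and 1 Q140 animal and RFQ over 1 and 3. With prefix as a term none of the 4 passed, with Kif21b at -0.18 (edgeR adjusted p = 0.303), Kif5c at -0.15, Kif17 at -0.12 and Kif11 at 0.44. Within the name numbers that both genotypes share, 150 and 161, none of the 4 passed, with Kif21b at -0.20 (edgeR adjusted p = 0.753), Kif5c at -0.17, Kif17 at -0.06 and Kif11 at 0.43, and Htt, at -0.31, did not pass there either (adjusted p = 0.623). Without wild types 3 and 6 together none of the 4 passed either. Kif21b was at -0.17 (edgeR adjusted p = 0.0718), Kif5c at -0.18, Kif17 at -0.24 and Kif11 at 0.41. That fit kept wild type 2 as the only wild type female, so sex was no longer balanced between the genotypes. In females Kif5b was at 0.26 there.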

How the data were processed

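Total RNA of piriform cortex from 12 mice was sequenced after Qiagen RNeasy extraction and Illumina TruSeq stranded preparation, per the labels' protocols. As tools, STAR 2.7.5c, HTSeq 0.12.3 and SAMtools 1.10 stand in the submitters' processing notes, and as builds mm10 and GRCm38. Annotation release and strand setting: not given in the sources used here. Whether the reads of genes that overlap on opposite strands were kept apart is therefore not known. The deposited count table holds whole reads per gene, not normalized. The deposited FPKM table carries no composition correction. It gave 1 length per gene in all animals, and was used for levels between genes and for shares.

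The test on counts was that of edgeR 4.0.16 under R 4.3.3 (quasi-likelihood test, TMM, default expression filter by genotype), with sex as a covariate. For the comparisons within and between the sexes, 1 model with the 4 combinations of genotype and sex was used. All p-values are two-sided and adjusted over every gene tested by Benjamini-Hochberg, with 0.05 as the threshold. CPM values use TMM-scaled sizes, and SE is the fold change divided by the root of F. DESeq2 1.42.0, limma 3.58.1 (voom, and log2(FPKM + pseudocount) with 0.1 and 1) and the alternatives of the closing section were compared. The fits were also run on simulated counts, and the outcome is not reported here. The changes put into those counts were larger than the falls of Kif5c, Kif17 and Kif21b. Positions came from GENCODE M21 (GRCm38), which matched 48349 of 48795 identifiers, and promoters from RefSeq (GRCm38.p6). The length implied by counts and FPKM equalled the M21 exonic length for Kif5c, Kif17 and Kif21b. It differed for Kif11 (4819 against 7461 bases), Kif2a (7046 against 6393) and Kif3c (6849 against 7406). Exon segments and overlaps are those of M21, and may not be those of the gene models counted.

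The motor genes, families, gene lists and markers were chosen with earlier results of these data known. Genes named by rule were Htt, each motor gene that passed a test in edgeR, and the smallest p of each family. The rule also took 13 genes picked as the main motors of neurons, and up to 4 passing genes of each other list. Other motor genes, such as Kif3b, Kif3c, Kifc1, Kif23 and Dctn3, were named outside this rule, to describe levels, paralogs, shared sequence or promoters.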

Additional observations from a re-analysis of the deposited data

Results flagged for a closer look

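Among 48 groups of 6 animals (24 genes, 2 genotypes), 4 held an animal whose gap to its nearest neighbour exceeded 0.625 of the group's range, Dixon's 95% limit. Chance marks about 1 group in 20. Q140 animal 3 was the low one for Kif3a, at 119.988 CPM with the next animal at 135 CPM, and for Kif1b, at 1047.85 CPM with the next at 1172 CPM. Wild type 4 was low for Dync1h1, at 789.593 CPM with the next at 839 CPM, and for Htt, at 179.902 CPM with the next at 197 CPM. Wild type 4 was also the lowest wild type for Kif21b and Kif17.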

How the results depend on the processing

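The 32 alternatives comprised 12 fits without 1 animal and 20 others, 4 of them (length and GC offsets; wild types 3 and 6 out together; plate column and name prefix as terms in the model by sex) added after seeing the data. The last 2 bear on the sexes only. Every estimate of Kif21b, Kif11, Kif5c, Kif17 and Htt kept its sign in the other 30, and they passed in 26, 25, 17, 16 and 28. The number of motor genes higher in Q140 was 2 under library totals alone and under limma on log2(FPKM + 0.1) and log2(FPKM + 1), with 1 lower in each, 0 within plate column 8 (1 lower), and 0 within plate column 9, with the name prefix as a term, within name numbers 150 and 161, and without wild types 3 and 6 together (0 lower in each of these 4). Over all genes tested, 134 passed with the prefix term, 3 in plate column 9 and 1 within the name numbers. The cause was not tested. Without 1 animal the count lower ran from 1 (without wild type 1 or Q140 animal 1) to 4, and the count in females from 1 to 3. Between the genotypes, 6.39% (without Q140 animal 2) to 14.1% (without Q140 animal 5) of all genes tested passed in these fits. Shares of all genes within females were not counted for the alternatives. The females' count was 0 with the prefix term and 2 with the plate column term. DESeq2 gave 1 for the difference between the sexes and 1 for sex, and voom 1 in males.

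No called gene changed sign. Estimates of genes that did not pass did. Kif1a, Dync1i1 and Dctn1 gave 0.0047, 0.036 and 0.034 under library totals, 0.0058, 0.034 and 0.035 on log2(FPKM + 0.1), and 0.0057, 0.033 and 0.034 on log2(FPKM + 1). Plate column 8 gave 0.053 for Kif26b and -0.023 for Kif21a. Plate column 9 gave Dctn2 0.085, Kif5b -0.083, Klc1 0.13, Kif1a 0.085, Kif3a 0.024, Dync1h1 0.020, Dync1i1 0.19, Dctn1 0.11 and Dynll1 0.042. The prefix term gave Klc1 0.013, Kif1a 0.020, Dync1i1 0.092 and Dctn1 0.046, and the name numbers Kif1a 0.016, Dync1i1 0.055 and Dctn1 0.038. Length offsets gave Dctn1 0.0053, length and GC offsets Kif1a 0.0010 and Dctn1 0.026, and leaving out wild types 3 and 6 Dync1i1 0.024 and Dctn1 0.017. Without 1 animal, Dync1i1 ran from -0.047 to 0.033 and Dctn1 from -0.042 to 0.012. The cause was not tested. Depth limits the mitotic kinesins most, with 67 reads of Kif20a over all wild types. No paired analysis was possible because replicate numbers follow accession order and pair no animals; the fit within name numbers 150 and 161 was the one made among animals that share a number.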
